A study of Homo sapiens with 43 samples.

Results

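The super elongation complex and the little elongation complex are described here through the genes that encode them. The 10 genes are AFF1, AFF4, ELL, ELL2, ELL3, MLLT1, MLLT3, EAF1, ICE1 and ICE2, chosen by name out of 20033 protein-coding genes in the RefSeq table. The question for each was whether and where peaks of CDK9 and of RNA polymerase II were called at it. A peak was counted at a gene when it lay within 1 kb of either gene end on hg38. Peaks of polymerase phosphorylated at serine 2 were also counted over the whole gene with 2 kb either side, and the same wider window was applied to the other targets after peaks inside AFF1, AFF4 and MLLT3 had been seen.

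Transcribing polymerase pauses soon after the start of most genes, and its release is driven by CDK9, the kinase of P-TEFb. The super elongation complex joins P-TEFb to the ELL elongation factors on an AFF scaffold, with ENL (MLLT1) or AF9 (MLLT3) reading acylated histones. The little elongation complex joins ELL to ICE1 and ICE2 and serves small nuclear RNA genes. AFF1, ELL, MLLT1 and MLLT3 are known as fusion partners of MLL in leukaemia.

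The study treated SUDHL5 and KARPAS422, established cell lines of diffuse large B-cell lymphoma, with 30 nM CDK-TCIP1 or with 0.1% DMSO alone. One end of CDK-TCIP1 binds CDK9 and its other end binds BCL6, a transcriptional repressor of B cells, which makes it a bivalent small molecule. CDK9 was immunoprecipitated after 2 h of DMSO or CDK-TCIP1, from SUDHL5 with antibody ab239364 and antibody CST2316S and from KARPAS422 with CST2316S alone, giving 2 peak lists per group. The labels, followed here, give 2 h for the CDK9 DMSO samples, whereas the names of their deposited lists carry 0 h. In SUDHL5 alone, polymerase was profiled after 4 h of DMSO and after 2 h and 4 h of CDK-TCIP1. The marks were serine 5 phosphorylation (Ser5P, typical of initiated and paused polymerase; 2 lists per group), total RNA polymerase II (Pol II; 3 lists per group) and serine 2 phosphorylation (Ser2P, typical of elongating polymerase; 2 lists per group). Both treatment times share the 4 h DMSO lists. All cells carried the DMSO vehicle, and chromatin for CDK9 carried a fly spike-in that was not used here.

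In all, 286536 peaks were deposited, and each list kept between 138 and 28951 of them on placed chromosomes, and 10 input samples came without a list. CDK9 lists of SUDHL5 held 915 to 3508 peaks after DMSO and 9262 to 11148 after CDK-TCIP1 with ab239364, and 1264 to 1611 against 9761 to 10005 with CST2316S. KARPAS422 lists held 6689 to 7804 and 10297 to 14554. The shortest list of all was 1 of the Pol II lists at 4 h, and an absent peak in it carries little weight. Peaks lay at 8 of 8 B-cell marker genes in both DMSO Ser5P lists of SUDHL5 and at 7 of 8 in both DMSO CDK9 lists of KARPAS422. CD3E, a T-cell gene, had a peak in both lines and CD3D in KARPAS422, and 0 of 4 myeloid, 0 of 2 liver and 0 of 2 neuronal markers had one. The labels do not say whether replicates were separate cultures, so spread between lists may be technical. No read totals are in the lists, so depth is unknown and no count interval can be given.

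Across the 33 lists the 10 genes ranged from near-constant occupancy to none. ELL3 had a peak at its ends in 31 lists, AFF4 in 26, ICE2 in 20, MLLT3 and ICE1 in 12 each, ELL in 11, EAF1 in 7 and MLLT1 in 3. AFF1 and ELL2 had a gene-end peak in 0 lists. Over the whole gene AFF1 had a peak in 24 of 33 lists, MLLT1 in 9 and MLLT3 in 15, whereas ELL2 had one in 0. A peak's rank is given below as a percentile, the percent of peaks in the same list with a lower −log10 q, because fold enrichment and q are the authors' own values and are not scaled between lists.

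**Figure D1:**
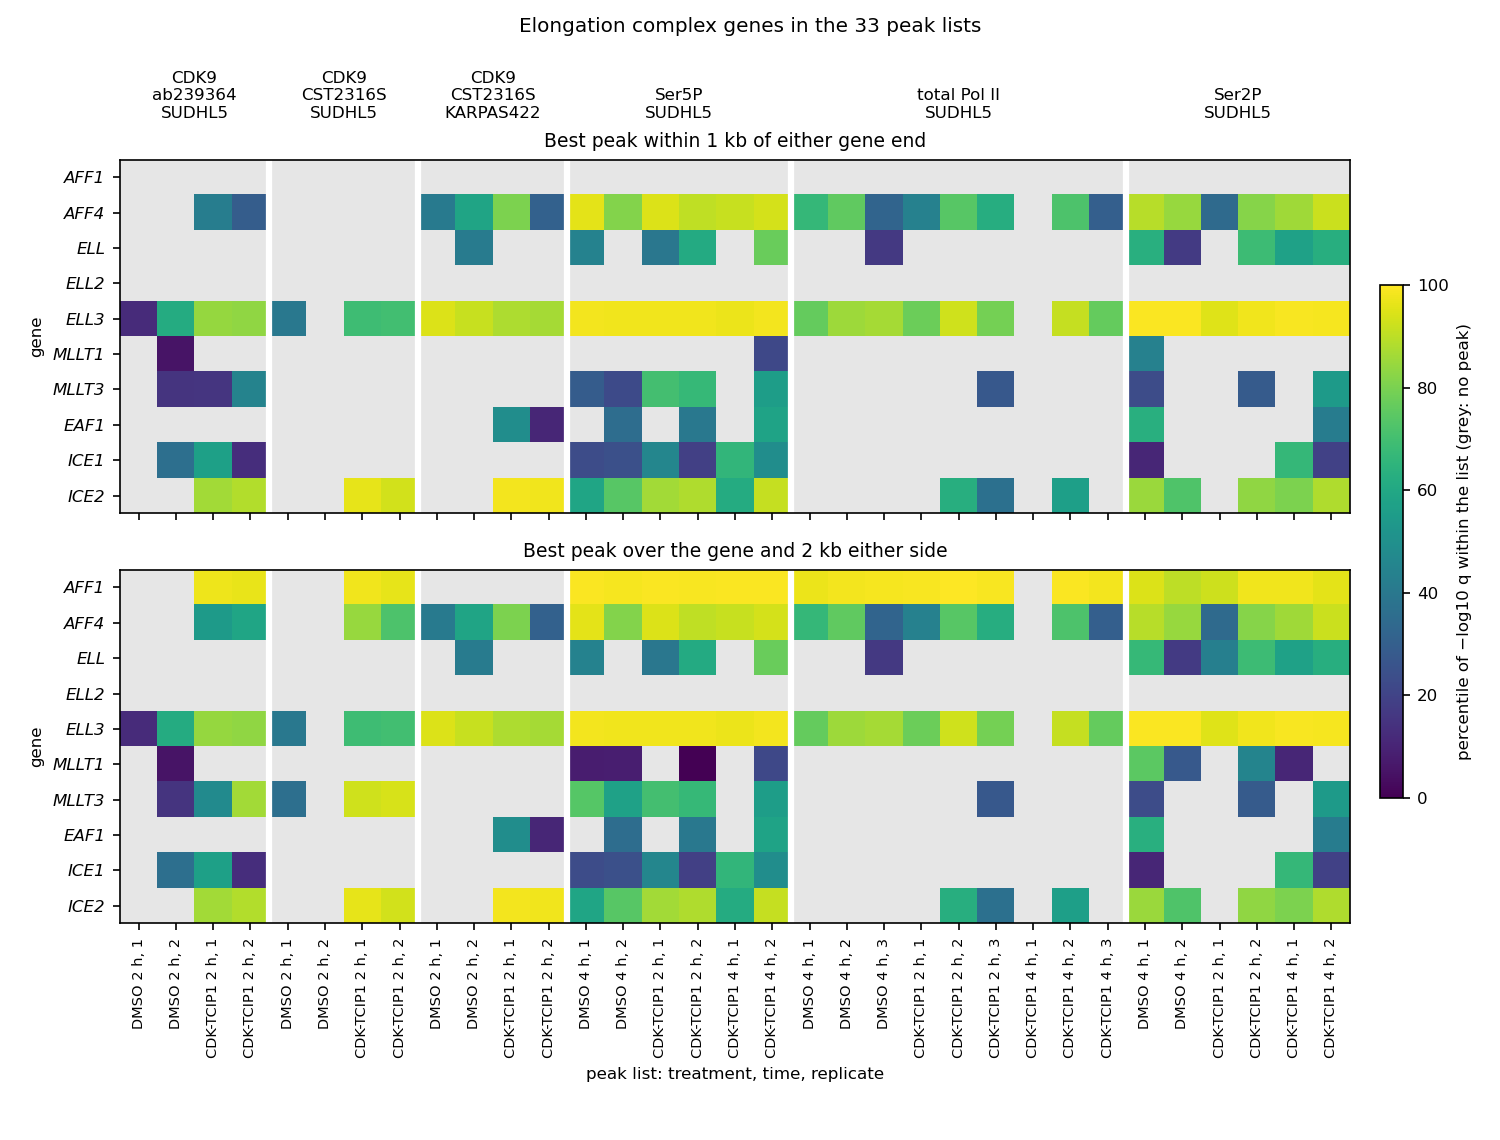
Each cell is the percentile, by −log10 q within its list, of the best peak of 1 gene (rows) in 1 of the 33 lists (columns, by target, antibody, line, treatment, time and replicate), and grey means no peak. The upper panel counts peaks within 1 kb of a gene end and the lower panel peaks over the gene and 2 kb either side. ICE2 is filled in the 6 treated CDK9 lists and grey in the 6 DMSO ones, and AFF1 is filled only in the lower panel.

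Gained means here that the treated lists of a comparison all held a peak at the gene and its DMSO lists held none. Lost means the opposite. With ab239364 in SUDHL5, 2 of the 10 genes gained CDK9 at a gene end, AFF4 and ICE2, where 7.57% of all protein-coding genes did. With CST2316S in SUDHL5, 1 of 10 did, ICE2, against 6.31% of all genes. In KARPAS422, EAF1 and ICE2 gained CDK9, 2 of 10 against 4.38%. Read against these shares, the counts are no result about the members as a group. None of the 10 genes lost CDK9, where the share of all genes that did was 0.00998% with ab239364, 0.0% with CST2316S in SUDHL5 and 0.629% in KARPAS422.

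These splits depended on list length. When only as many top peaks were taken from each list as the shortest list of its set holds, the genes gained and lost among all genes went from 1516 and 2 to 38 and 126 with ab239364, from 1265 and 0 to 126 and 93 with CST2316S in SUDHL5, and from 877 and 126 to 359 and 506 in KARPAS422. Under that setting no member was gained with ab239364, and ICE2 alone was gained in both CST2316S sets. ICE2 was the only member gained in all 3 sets, a call that 94 genes shared, 0.469% of all.

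Among the scaffolds, AFF1 had no peak within 1 kb of its ends in any list. The gene lies at chr4:86935011-87141039 on the forward strand and has a second RefSeq start inside it, at position 87007271, so every peak described here is inside the gene. The 250 bases before the second start, chr4:87007021-87007270 on the forward strand (GRCh38.p14, sequence from RefSeq), are shown because the highest-ranked Ser5P and Pol II peaks of the 10 genes had their summits just before them. Capitals mark a match to the palindrome TTCNNNGAA, the core shared by BCL6 and STAT motifs:
AFF1: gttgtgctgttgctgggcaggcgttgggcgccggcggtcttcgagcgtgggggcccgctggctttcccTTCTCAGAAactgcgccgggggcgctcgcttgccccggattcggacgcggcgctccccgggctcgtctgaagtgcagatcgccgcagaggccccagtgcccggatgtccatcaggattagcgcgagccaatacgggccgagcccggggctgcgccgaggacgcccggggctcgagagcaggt

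Pol II peaks lay with their summits 426 to 458 bp before that second start, in 8 of 9 lists. The percentiles were 97.0, 98.3 and 98.6 after DMSO, 99.2, 99.8 and 99.0 at 2 h, and 99.5 and 98.2 at 4 h, with no peak in the 138-peak list. AFF1 was thus among the top 3% of Pol II peaks wherever it was called. The Pol II peak was 0.353, 0.571 and 0.424 kb wide after DMSO and 0.808, 1.27 and 0.796 kb wide at 2 h. All 3 treated lists at 2 h were above all 3 DMSO lists. Of 5035 genes with a Pol II peak over the gene in at least 1 of those lists, 1.87% had more covered bases in every 2 h list. Covered bases were summed over all peaks of the gene and 2 kb either side. AFF1 was the only 1 of 6 members tested, while 0.139% of genes and 0 members were covered less. At 4 h the widths were 0.873 and 0.416 kb, the first above the DMSO range and the second inside it.

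Ser5P at the same place ranked high in all lists, with percentiles of 99.3 and 98.5 after DMSO, 99.6 and 99.2 at 2 h, and 99.4 and 99.4 at 4 h. The ranks of the DMSO and 2 h groups overlapped. Folds over background, which are not scaled between lists, were 30.2 and 21.9 after DMSO, 61.0 and 39.4 at 2 h, and 44.6 and 37.7 at 4 h. The Ser5P peak itself widened from 0.643 and 0.53 kb after DMSO to 2.19 and 1.66 kb at 2 h and 1.91 and 1.83 kb at 4 h. Groups did not overlap at either time. Over the whole gene, Ser5P covered 1.03 and 0.53 kb after DMSO, 2.19 and 1.66 kb at 2 h, and 2.3 and 2.6 kb at 4 h. Of genes with a Ser5P peak over the gene, 32.7% were covered more in every 2 h list than in every DMSO list and 16% in every 4 h list, so that the direction at AFF1 was a common one. Less coverage was found at 6.74% and 12.8% of genes and at 0 members.

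CDK9 over AFF1 was called in none of the 4 DMSO lists of SUDHL5 and in all 4 treated ones. There were 4 and 6 peaks covering 3.32 and 6.26 kb with ab239364, and 8 and 7 peaks covering 12.4 and 12.5 kb with CST2316S. Overlapping peaks formed 9 sites, of which 4 were gained with both antibodies, with median summits 4.87, 26.8, 63.3 and 71.8 kb from the first start. In 3 of the 4 treated lists the highest ranked was the site at chr4:86937999-86940604, with percentiles of 97.3 and 96.5 (ab239364) and 97.7 and 96.0 (CST2316S) and folds of 20.2, 18.2, 28.5 and 18.0. At the second start, by contrast, CDK9 ranked at 90.6, 77.6, 73.2 and 66.6. The KARPAS422 lists held no CDK9 peak over AFF1 in any of the 4.

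Away from the second start, polymerase peaks lay at 2 of these CDK9 sites. Both 4 h Ser5P lists, and no DMSO or 2 h list, had a weak peak at the site near 4.87 kb, with folds of 2.8 and 2.34 and percentiles of 8.73 and 5.71. The second 4 h Ser2P list also had a weak peak within that site, with a fold of 3.43 and a percentile of 1.64. Ser2P had a peak at the 63.3 kb site in 1 of 2 DMSO lists, 1 of 2 lists at 2 h and both lists at 4 h. Ser5P had one there in the second 4 h list, with a fold of 4.24. The 26.8 kb site had no polymerase peak.

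**Figure D2:**
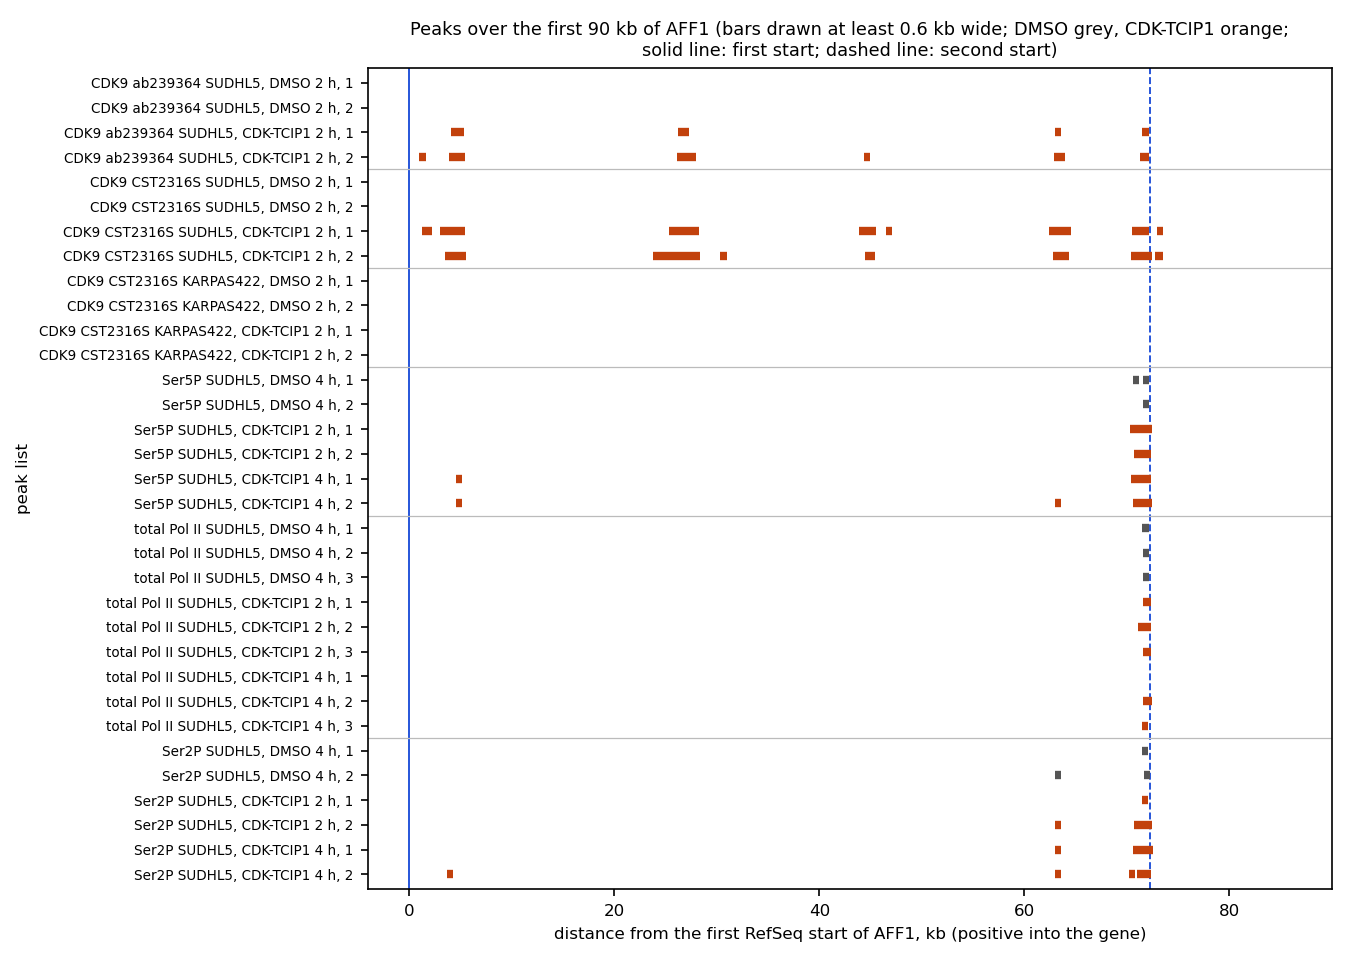
Called peaks over the first 90 kb of AFF1, with distance from the first start in kb on the horizontal axis and 1 row per list; bars are drawn at least 0.6 kb wide, grey for DMSO and orange for CDK-TCIP1. CDK9 bars appear in the 4 treated SUDHL5 lists alone, whereas polymerase bars gather just before the second start (dashed line) in all groups.

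AFF4, the scaffold of most super elongation complexes, lies at chr5:132875395-132963634 on the reverse strand. Its start carried peaks of all polymerase marks in nearly all lists. The 250 bases before it, chr5:132963635-132963884 read on the reverse strand (GRCh38.p14, RefSeq), are shown because the treated CDK9 peaks of ab239364 and of KARPAS422 reached into them, whereas the KARPAS422 DMSO peaks ended inside the gene. The CDK9 summits lay 296 to 536 bp inside the gene. Capitals mark an E-box match to CACGTG:
AFF4: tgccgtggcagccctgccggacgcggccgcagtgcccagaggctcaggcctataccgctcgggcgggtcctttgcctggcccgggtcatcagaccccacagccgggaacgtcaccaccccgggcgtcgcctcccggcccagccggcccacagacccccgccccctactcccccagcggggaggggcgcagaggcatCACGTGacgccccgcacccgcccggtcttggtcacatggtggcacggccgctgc

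At this start CDK9 was covered over 0.98 and 0.502 kb in the treated ab239364 lists and over 0 kb in their DMSO lists. The CST2316S lists of SUDHL5 held no peak there under either treatment. In KARPAS422 the start had a CDK9 peak before treatment, covering 0.528 and 0.607 kb after DMSO and 1.44 and 0.783 kb after CDK-TCIP1. The antibodies therefore differed in SUDHL5 at the AFF4 start, a difference that was not tested. Ranks were modest, with percentiles of 42.3 and 29.4 for ab239364 and 80.2 and 31.1 for treated KARPAS422.

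Deeper in AFF4, CDK9 sites at chr5:132885188-132887988 and chr5:132900924-132902676 were gained with both antibodies in SUDHL5. Their median summits were 77.0 and 62.4 kb from the start, toward the far end of the gene. At the 77.0 kb site folds were 3.92 and 3.77 with ab239364 and 12.0 and 6.11 with CST2316S. Ser5P was called at the 77.0 kb site in 1 DMSO list and 1 list at 2 h, and at the 62.4 kb site in 1 DMSO list. Neither site had a CDK9 peak in KARPAS422.

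Counted over the gene and 2 kb, AFF1, AFF4 and ICE2 gained CDK9 with each antibody in SUDHL5, 3 of 10 in both cases, where 10.0% of all genes did with ab239364 and 10.2% with CST2316S. Long genes have more room for peaks, and among genes of at least 50 kb the shares were 14% and 16.1%, beside 3 of 8 long members with each antibody. For the call with both antibodies at once, 3 of 10 members stood beside 4.58% of all genes. Among long genes it was 3 of 8 members beside 7.8%. KARPAS422 gained EAF1 and ICE2, 2 of 10 against 5.36%. With equal numbers of top peaks, AFF1 kept its call with both antibodies and AFF4 lost it with both. The wider window was applied to CDK9 after peaks inside AFF1, AFF4 and MLLT3 had been seen. These counts are therefore no result about the members as a group.

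At the AFF4 start, Ser5P folds were 15.98 and 7.85 after DMSO, 19.8 and 12.9 at 2 h, and 13.1 and 14.1 at 4 h, with overlapping groups. The Pol II peak covered 0.62, 0.769 and 0.584 kb after DMSO, 0.703, 0.905 and 0.784 kb at 2 h, and 0.862 and 0.523 kb in the 4 h lists that held one, and the groups overlapped. The Pol II replicate numbers at 2 h were taken as pairs, on a hint from these same lists. AFF4 was covered more in the treated list of 3 of 3 pairs, the only member of 5 tested at gene ends. So were 7.83% of 4328 genes, and 0.855% were covered less. The treated list was also the longer one in each 2 h pair, with 710 peaks after DMSO against 1214, 3229 against 4000 and 2028 against 2385. The part of list length in this was not tested. At 4 h the direction at AFF4 was mixed by the same numbers. The treated lists had no peak against 0.62 kb after DMSO, 0.862 against 0.769 kb and 0.523 against 0.584 kb. Ser2P over AFF4 covered 1.89 and 2.22 kb after DMSO, 0.574 and 1.4 kb at 2 h, and 1.31 and 0.739 kb at 4 h. All 4 treated lists were below both DMSO lists. A site past the gene end, chr5:132871291-132874102, was called in both DMSO lists, no list at 2 h and 1 list at 4 h. It overlaps the gene LEAP2, so its part of the coverage cannot be assigned to AFF4. The peak at the start itself was present in all 6 Ser2P lists, and the peak near 70.6 kb was called in both DMSO lists and no treated one. Lower coverage in every treated list was found at 24.7% of genes at 2 h and 18.4% at 4 h, while the Ser2P lists themselves held 16593 and 28951 peaks after DMSO, 6519 and 16170 at 2 h, and 13657 and 16323 at 4 h. With equal numbers of top peaks the mean AFF4 difference went from −1.07 to −0.05 kb at 2 h and turned from −1.03 to 0.04 kb at 4 h.

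**Figure D3:**
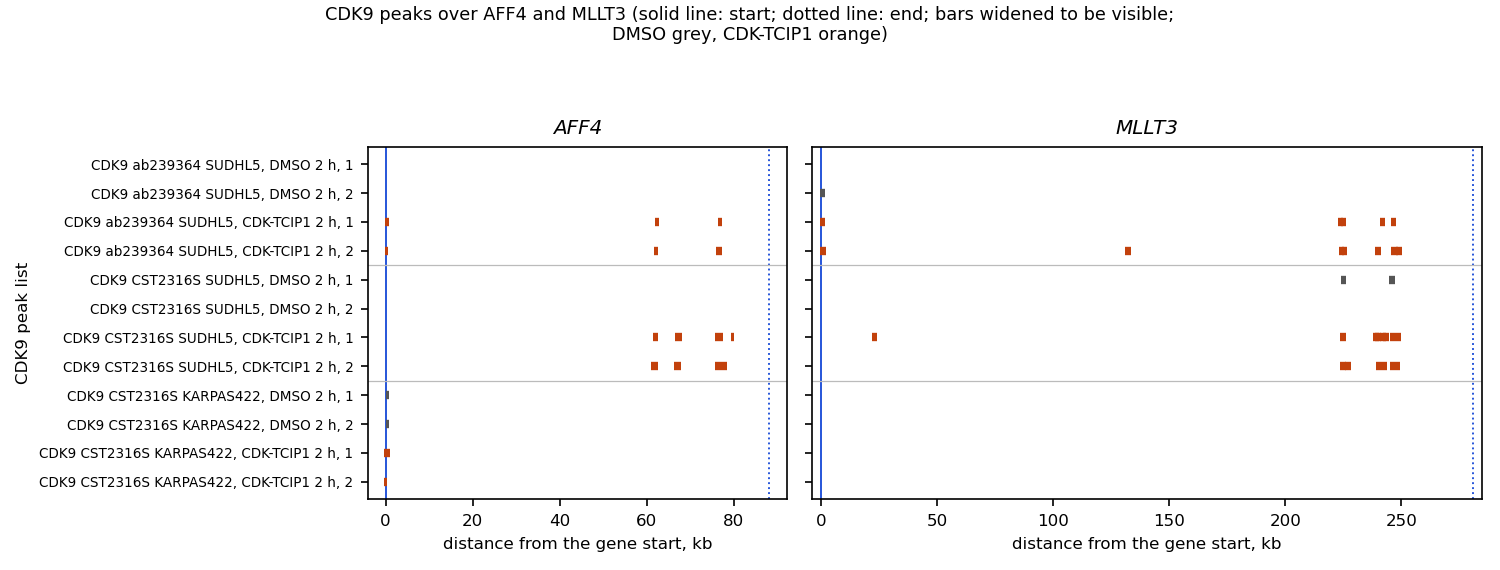
CDK9 peaks over AFF4 (left) and MLLT3 (right) in the 12 CDK9 lists, by distance from the gene start in kb, grey for DMSO and orange for CDK-TCIP1, with bars widened to be visible. Clusters far inside both genes are present in the 4 treated SUDHL5 lists and in no KARPAS422 list. Those of MLLT3 also appear in 1 DMSO list of SUDHL5 with CST2316S.

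The ELL family, the elongation factors themselves, gave 3 different pictures. ELL2, at chr5:95885098-95961851, had no peak of any target in any of the 33 lists, even over the gene and 2 kb. ELL3 had one in 31. ELL, at chr19:18442663-18522070 on the reverse strand, lay between.

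Ser5P at the ELL start covered 0.334 and 0 kb after DMSO and 0.857 and 1.08 kb at 2 h, so that the 2 h lists were both higher. At 4 h coverage was 0 and 1.02 kb, spanning the DMSO range. ELL, MLLT3 and ICE2 were the 3 of 7 members tested whose gene ends were covered more by Ser5P in every 2 h list, where 36.1% of 8931 genes were. Coverage was lower in every 2 h list at 0 members and 4.92% of genes. CDK9 at ELL was called in only 1 of the 12 lists, the second DMSO list of KARPAS422, at a fold of 4.06. A Pol II peak was likewise called in 1 of 9 lists. Ser2P at the ELL ends covered 0.332 and 0.339 kb after DMSO, 0 and 0.938 kb at 2 h, and 0.937 and 0.704 kb at 4 h. The 4 h lists were both higher, as at ICE2 and at 19.6% of genes, whereas 13.5% of genes and 0 members were lower.

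ELL3 is a short gene of 4.35 kb at chr15:43772620-43776966 on the reverse strand, and its windows are shared. Its far end overlaps PDIA3, its start window also holds the start of SERF2, and signal cannot be assigned among the 3 genes. Ser5P covered 4.0 and 3.86 kb of its gene-end windows after DMSO, 4.0 and 3.67 kb at 2 h, and 3.94 and 3.96 kb at 4 h. The peak of the first DMSO list spanned both windows whole, so a rise above it could not be seen. ELL3 was the only member with a CDK9 peak in both ab239364 DMSO lists. With ab239364 it covered 0.409 and 0.875 kb after DMSO and 1.6 and 1.28 kb after CDK-TCIP1. With CST2316S it covered 0.54 and 0 kb against 1.55 and 1.35 kb. In KARPAS422 it covered 1.49 and 2.0 kb against 2.0 and 1.93 kb. In KARPAS422 the groups overlapped, but the second DMSO list already covered the whole 1 kb either side of the start. Coverage at the start could not rise above that list, so the overlap cannot show a difference between the lines. The SUDHL5 groups did not overlap with either antibody, so in SUDHL5 ELL3 belonged to the genes covered more in every treated list. Such genes made up 53.6% of those with a CDK9 peak with ab239364 (5 of 6 members), 62.1% with CST2316S in SUDHL5 (2 of 2) and 32.6% in KARPAS422 (3 of 5). The shares covered less were 0.0335%, 0.115% and 7.73%, with 0 members in each. Over ELL3 and 2 kb, Ser2P covered 5.96 and 5.78 kb after DMSO and 5.48 and 5.6 kb at 2 h without overlap. Coverage was lower in every 2 h list at 24.7% of genes and at 2 of 9 members tested, AFF4 and ELL3. It was higher at 1.21% of genes and 0 members. The exact permutation test given below put ELL3 at 0.333, the smallest p it allows, so it cannot decide this difference. At 4 h Ser2P over ELL3 covered 5.99 and 5.36 kb, and the groups overlapped.

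Of the histone readers, MLLT1 was nearly bare and MLLT3 was not. MLLT1, at chr19:6210381-6279975 on the reverse strand, had a gene-end peak in 3 lists, each of a different target and at percentiles of 43.8 (Ser2P), 21.9 (Ser5P) and 5.16 (CDK9). Within the gene, Ser2P formed 12 peaks over 7.13 kb in the first DMSO list but only 2 peaks over 1.0 kb in the second. Treated lists held 0 and 3 peaks at 2 h and 3 and 0 at 4 h. The difference from DMSO therefore rests on 1 list, the longest of the series with 28951 peaks.

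MLLT3, at chr9:20341669-20622499 on the reverse strand, is the longest member at 281 kb. Its start had a Ser5P peak 0.794 and 0.693 kb wide after DMSO and 1.59 and 1.63 kb wide at 2 h. At 4 h 1 list had no peak there and the other had one of 1.55 kb. The percentiles at the start were 29.2 and 22.5 after DMSO, 70.1 and 67.2 at 2 h and 55.6 in the 4 h list with a peak, in lists of different length.

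CDK9 in MLLT3 gathered far from the start, at chr9:20372875-20377309 and chr9:20396292-20398970, with median summits 246 and 225 kb in. Over the gene and 2 kb, CDK9 covered 0 and 0.448 kb after DMSO against 3.11 and 6.6 kb after CDK-TCIP1 with ab239364, and 1.29 and 0 kb against 9.26 and 10.1 kb with CST2316S. Treated lists were all above DMSO lists. The same held at 57.4% of genes with a CDK9 peak over the gene with ab239364 (6 of 7 members). With CST2316S it held at 67.4% (5 of 5 members), so the direction at MLLT3 was a common one. The shares covered less were 0.0269% and 0.0243%, with 0 members in each. MLLT3 was not called gained. With CST2316S 1 DMSO list already had peaks at both distal sites. With ab239364 1 DMSO list had a peak at the start, and no DMSO list had one at either distal site. At the 246 kb site the fold was 3.68 in that DMSO list and at most 10.5 and 23.2 in the treated CST2316S lists. Ser5P peaks lay at the same 2 sites, at 246 kb in the first and at 225 kb in the second DMSO list. In KARPAS422 MLLT3 had no CDK9 peak at all.

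EAF1, an ELL-associated factor that stimulates elongation, gained CDK9 in KARPAS422 alone. It lies at chr3:15427598-15442613 on the forward strand and shares its start with METTL6 on the other strand, so the peaks belong to either. The 250 bases before its start, chr3:15427348-15427597 on the forward strand (GRCh38.p14, RefSeq), are shown because 1 of the 2 CDK9 summits fell in them, 30 bp before the start, and the other lay 292 bp before it, with 3 matches to CGGAAG, the core of ETS motifs, in capitals on either strand:
EAF1: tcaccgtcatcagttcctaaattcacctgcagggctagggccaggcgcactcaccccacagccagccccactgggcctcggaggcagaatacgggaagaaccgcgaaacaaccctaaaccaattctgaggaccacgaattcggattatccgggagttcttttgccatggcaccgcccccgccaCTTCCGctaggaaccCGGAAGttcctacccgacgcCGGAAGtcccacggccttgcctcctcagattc

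The treated KARPAS422 lists held EAF1 peaks covering 0.859 and 0.596 kb, with folds of 4.5 and 2.81 and percentiles of 49.1 and 10.6. Neither DMSO list had one. The second peak was in the lowest part of its list, and EAF1 was no longer gained when peaks needed a −log10 q of at least 5 or when equal numbers of top peaks were taken. SUDHL5 had no CDK9 peak at EAF1 with either antibody, and its Ser5P there was confined to the second list of each group, at 0.423, 0.49 and 0.499 kb.

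Of the subunits of the little elongation complex, ICE1 is the scaffold. It lies at chr5:5422677-5490220 on the forward strand. Ser5P at its start covered 0.609 and 0.373 kb after DMSO, 0.33 and 0.502 kb at 2 h, and 0.755 and 0.848 kb at 4 h. Only the 4 h lists were above both DMSO lists, together with ICE2 the 2 of 8 members tested where 18.3% of genes were and 9.62% were lower. CDK9 was called at ICE1 with ab239364 alone, in 1 DMSO list over 0.59 kb and in the treated lists over 0.646 and 0.593 kb.

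ICE2, which binds ICE1 in the same complex, gained CDK9 in all 3 sets. It lies at chr15:60419609-60479142 on the reverse strand. A low-ranked CDK9 peak, at a percentile of 8.89, lay 14.5 kb inside the gene in 1 treated ab239364 list. All 6 CDK9 summits at the gene end fell between 142 and 165 bp upstream of the start. That stretch, chr15:60479143-60479392 read on the reverse strand (GRCh38.p14, RefSeq), holds a match to TTCNNNGAA in capitals, at chr15:60479284-60479292:
ICE2: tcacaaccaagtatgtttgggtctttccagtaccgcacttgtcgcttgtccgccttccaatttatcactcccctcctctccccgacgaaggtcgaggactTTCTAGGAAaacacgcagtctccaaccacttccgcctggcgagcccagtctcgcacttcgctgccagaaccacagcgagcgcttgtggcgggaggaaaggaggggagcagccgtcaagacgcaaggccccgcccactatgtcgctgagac

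No DMSO list of any set had a CDK9 peak at ICE2. With ab239364 the treated peaks had folds of 7.06 and 6.89 and percentiles of 86.2 and 88.4. With CST2316S in SUDHL5 folds were 16.9 and 10.4 and percentiles 96.2 and 93.3. KARPAS422 folds were 29.2 and 16.5 and percentiles 98.0 and 97.9. The ICE2 peak thus stood in the upper part of every treated list, highest in KARPAS422.

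The gene-end CDK9 summits of ICE2 lay 4 to 19 bp from the centre of the palindrome match. The 14 polymerase summits at the same start lay from 85 bp upstream to 242 bp inside the gene, 61 to 388 bp from that centre. The match is a description of the sequence and not a measured binding site. At the second start of AFF1, which also has a match, treated SUDHL5 CDK9 summits lay farther from it. They were 226 and 219 bp before the AFF1 match with ab239364, and 314 and 690 bp before it with CST2316S. TTCNNNGAA was present in 7.66% of 35116 RefSeq promoter windows of 300 bases. Among protein-coding genes in the promoter table it was present at 8.98% of 15842, at 9.83%, 11.5% and 11.2% of those that gained CDK9 in the 3 sets, and at 12 of the 80 gained in all 3, ICE2 included.

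**Figure D4:**
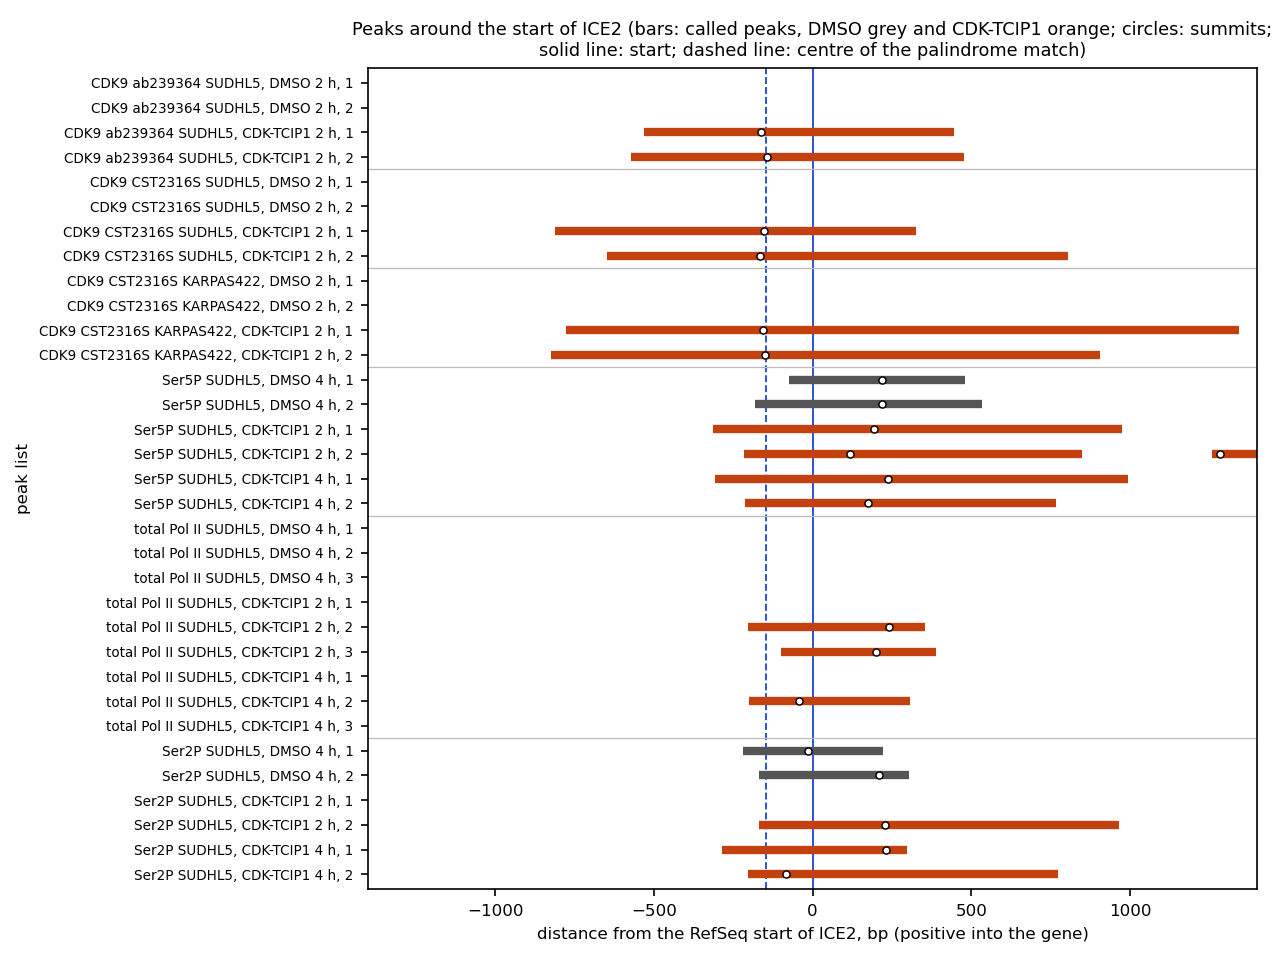
Called peaks around the start of ICE2 in the 33 lists, by distance from the start in bp, positive into the gene; bars are peaks (DMSO grey, CDK-TCIP1 orange) and circles are summits. The 6 CDK9 summits sit at the dashed line, the centre of the palindrome match, whereas polymerase summits lie to its right.

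Polymerase at ICE2 was present before treatment. Ser5P covered 0.557 and 0.715 kb after DMSO, 1.29 and 1.07 kb at 2 h, and 1.3 and 0.982 kb at 4 h. Both treated groups lay above both DMSO lists. A Pol II peak was called in 0 of 3 DMSO lists, 2 of 3 lists at 2 h and 1 of 3 at 4 h. Ser2P was called in both DMSO lists over 0.441 and 0.472 kb, in 1 of 2 lists at 2 h over 1.13 kb, and in both at 4 h over 0.581 and 0.977 kb. The list without it was the shortest Ser2P list, with 6519 peaks.

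**Figure D5:**
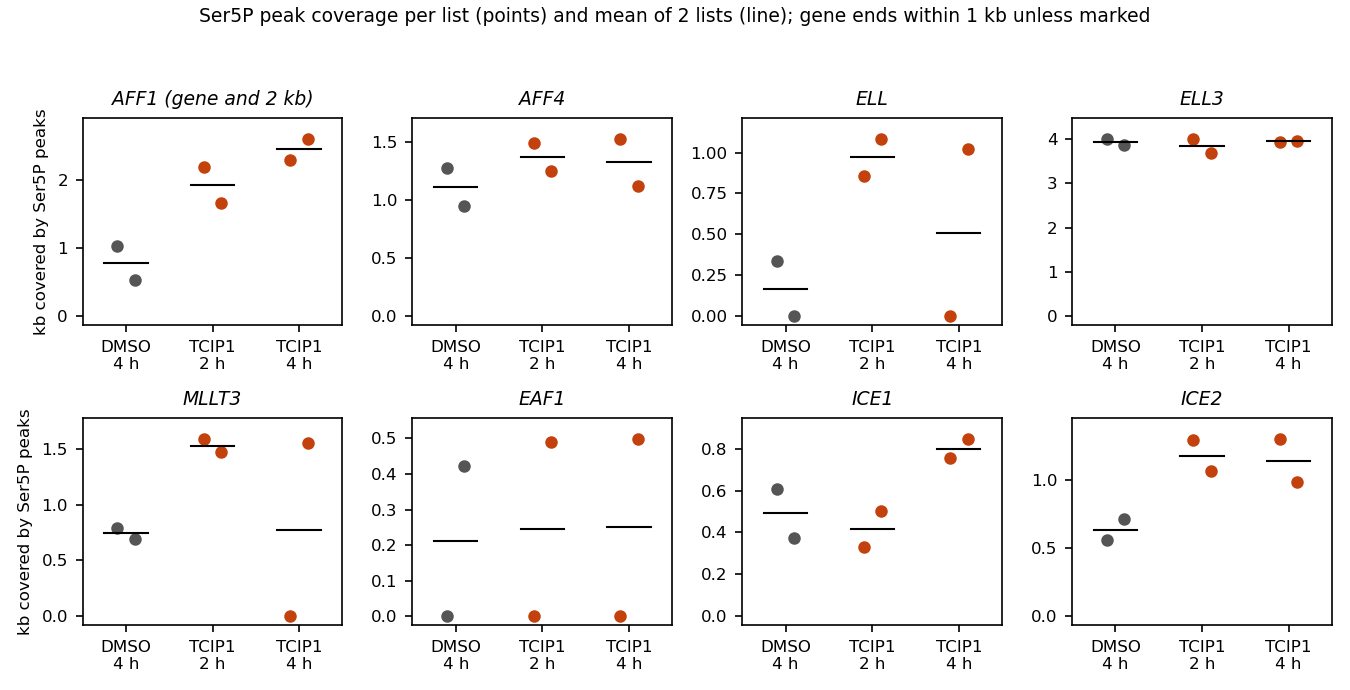
Kilobases covered by Ser5P peaks at 8 of the genes in each list (points) after 4 h of DMSO and after 2 h and 4 h of CDK-TCIP1, with the mean of the 2 lists as a line; windows are the gene ends, except for AFF1, where the whole gene and 2 kb either side is used. AFF1 and ICE2 are above DMSO in all 4 treated lists. ELL3 stays near 4 kb, where its gene-end windows are already close to filled after DMSO, so a rise could not be seen there.

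For covered bases, an exact two-sided permutation test compared treated with DMSO lists at gene ends over the 3 CDK9 sets, relabelling within each line, which allows 36 relabellings and no p below 0.0556. ICE2 was covered by 1.36 kb more after CDK-TCIP1 in the mean of the sets and AFF4 by 0.429 kb more, which with equal numbers of top peaks became 1.02 kb for ICE2, at the same exact p of 0.0556, and 0.051 kb for AFF4, at an exact p of 1.0. ICE2 was higher in 6 of 6 treated lists, and AFF4 in 4 of 6, since the CST2316S lists of SUDHL5 were all at 0 there. Both reached that smallest exact p of 0.0556, with a Benjamini-Hochberg adjusted p of 0.371 over 7741 genes, as did 15% of all genes tested. ELL3 differed by 0.733 kb at an exact p of 0.167 (adjusted 0.538), and with equal numbers of top peaks by −0.085 kb. MLLT3, EAF1 and ICE1 each had an exact p of 0.333 and ELL and MLLT1 of 1.0. No gene of the 7741 had an adjusted p below 0.05 and none an unadjusted one, which this design cannot give.

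No member gained or lost a Ser5P, Pol II or Ser2P peak at either time. Among all genes, Ser5P was gained at 2.74% and lost at 0.26% at 2 h, and gained at 1.4% and lost at 0.419% at 4 h. The Pol II shares were 0.17% gained and 0.00499% lost at 2 h and 0.0% gained and 0.03% lost at 4 h. Ser2P over the gene and 2 kb was gained at 0.135% and lost at 1.98% at 2 h, a split of 27 to 397 genes that became 328 to 186 with equal numbers of top peaks. At 4 h it was gained at 1.37% and lost at 1.21%. Ser5P was already present at 5 of the 10 gene ends in every DMSO and 2 h list, AFF4, ELL3, MLLT3, ICE1 and ICE2, where 26% of all genes had it.

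The exact permutation test of Ser2P coverage has 6 relabellings at each time and no p below 0.333. AFF4 was covered by 1.07 kb less at 2 h and 1.03 kb less at 4 h, both at that smallest exact p of 0.333, with adjusted p of 1.0 and 0.984. AFF1 and ICE2 were covered by 1.7 and 0.322 kb more at 4 h, also at an exact p of 0.333 (adjusted 0.984). Those 2 stood above both DMSO lists in both 4 h lists, as 15.4% of genes did. At 2 h 1.21% of genes and 0 members were covered more in every treated list. None of the 10772 genes tested at 2 h or 10979 at 4 h passed after adjustment, and none had an unadjusted p below 0.05.

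The promoter windows of the members, 250 bases before to 50 after the start, were compared for 6 short motifs on both strands. The table held 10 such windows for 9 members, 2 of them for AFF1. GGGCGG, the GC box, was in 10 of 10 windows, against 45% of all promoters. CCAAT was in 7 of 10 against 34.6%, and the TATA box TATAAA in 0 of 10 against 11.5%. CGGAAG was at ELL3, EAF1 and ICE2 (19.5% of all), CACGTG at AFF4 and MLLT1 (7.26%), and TTCNNNGAA at AFF1 and ICE2.

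Of 29 other elongation genes, listed by role, 0 lost CDK9 in any set. AFF2, NELFE and CDK13 gained it with ab239364. HEXIM1, HEXIM2, AFF2, AFF3, SUPT4H1 and TCEA1 did with CST2316S in SUDHL5. HEXIM1, EAF2 and LEO1 did in KARPAS422. These are 3 of 29 beside 7.57% of all genes with ab239364, 6 of 29 beside 6.31% with CST2316S in SUDHL5, and 3 of 29 beside 4.38% in KARPAS422. AFF2, a paralogue of the AFF scaffolds, was the one gained with both antibodies in SUDHL5, and HEXIM1, an inhibitor of P-TEFb, the one gained in both lines with CST2316S. For polymerase, the PAF complex genes LEO1 and SKIC8 gained Ser2P at 4 h, 2 of 29 beside 1.37% of all genes. Ser5P was present in every DMSO and 2 h list at 23 of the 29 genes, against 5 of the 10 members.

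For the members that gained CDK9, the genes with the most similar pattern were found by Pearson correlation of gene-end percentiles over the 33 lists, with 0 where there was no peak. ICE2 was most like SUB1 (r = 0.914), PIAS1 (0.909) and NFATC3 (0.905). AFF4 was most like SCAND1 (0.919), CNBD2 (0.919) and ELP6 (0.895). EAF1 was most like DENND1C (0.87), TMX1 (0.842) and BECN1 (0.84). The lists share cell lines, antibodies and lengths, so these values describe likeness of occupancy and carry no test.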

How the data were processed

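Chromatin immunoprecipitation followed by sequencing was analysed from the peak lists the authors deposited, 1 per sample. The submitters' processing notes name MACS2 and Bowtie2, besides Trim Galore, Picard, SAMtools, deepTools and bedtools, and the builds hg38 and dm6, with no versions or settings. Each deposited list gives the authors' fold enrichment (a ratio), the −log10 of the p and q values, a score and the summit. Lists are per sample, not pooled, and the spike-in scaling was not used here. 25 peaks on unplaced contigs were left out.

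Genes came from the RefSeq table of GRCh38.p14. Any overlap of at least 1 bp counted. Gained, lost and covered bases were computed in Python 3.11.15 with numpy 2.4.6 and pandas 2.3.3. Permutation tests were exact, with Benjamini-Hochberg adjustment over all genes with a peak, and were tested on simulated data. All 10 members are named in every readout. Other pathway genes are named when gained or lost, except for a result that is not reported here, and 3 similar genes are given per member that gained CDK9. Members and lists were chosen with earlier results of these data known.

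Alternatives were a −log10 q of at least 5, equal numbers of top peaks, windows of 2.5 and 0.5 kb, summits only, a replicate block and leaving out each list. Replicate numbers were taken as pairs over all genes for Pol II at 2 h alone, where the deviations of same-numbered lists correlated over genes at 0.337, 0.289 and 0.197, a hint from the data since the labels name no shared source. At 4 h same-numbered Pol II lists were set side by side for AFF4 only. The 10 inputs had no list and were not analysed here.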

Additional observations from a re-analysis of the deposited data

How the results depend on the processing

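ICE2 was gained in all 3 CDK9 sets under a −log10 q of at least 5, windows of 2.5 and 0.5 kb, summits only and every list left out, and in 2 of 3 with equal top peaks. Members gained at gene ends became 0 with ab239364 and 1 in KARPAS422 with equal top peaks, and 2 with CST2316S in SUDHL5 and 1 in KARPAS422 at a −log10 q of at least 5. Over the gene and 2 kb, equal top peaks gave 1 with ab239364, 2 with CST2316S in SUDHL5 and 1 in KARPAS422. A −log10 q of at least 5 gave 4 with ab239364, 5 with CST2316S in SUDHL5 and 1 in KARPAS422. MLLT3 was among those gained with each antibody in SUDHL5 at that q. Ser5P gains at that q became 2 at 2 h (ELL, MLLT3) and 1 at 4 h (ICE1) at gene ends, and 1 at each time over the gene (ELL, then ICE1), and Ser2P gains at 2 h became 1 (ELL) with equal top peaks.

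Leaving out single lists, members gained ranged from 2 to 4 with ab239364 (MLLT3 and ICE1 added without the second DMSO list), 1 to 2 with CST2316S in SUDHL5 (ELL3 added without the first DMSO list) and 2 to 2 in KARPAS422, and over the gene from 3 to 5, 3 to 5 and 2 to 2. Members lost ranged from 0 to 1 with ab239364 (MLLT1 without the first DMSO list) and in KARPAS422 (ELL without the first DMSO list), in both windows. Ser5P gains ranged from 0 to 1 at both times at gene ends and at 2 h over the gene, and losses from 0 to 1 at 4 h at gene ends and from 0 to 1 at 2 h and 0 to 2 at 4 h over the gene. Pol II gains ranged from 0 to 1 at 2 h in both windows, and Ser2P losses from 0 to 2 at 2 h and 0 to 1 at 4 h, with gains from 0 to 1 at 4 h.

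With a replicate block, 0 genes had an adjusted p under 0.05 in the CDK9 test, where the smallest exact p is 0.125, and 0 in each Ser2P test, where it is 0.5. Same-numbered lists deviated with correlations of −0.011, 0.032 and −0.037 in the CDK9 sets and −0.323 and 0.435 for Ser2P at 2 h and 4 h, and 0.189 and 0.102 for Ser5P. For Pol II they were 0.337, 0.289 and 0.197 at 2 h and 0.426, 0.307 and 0.073 at 4 h, and each list correlated best with its own number at both times. Crossing the numbers of Ser2P at 2 h also gave 0 genes.

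These differences in kb changed sign. With equal top peaks, CDK9 at ELL3 gave −0.085, Ser2P at 2 h gave 0.655 at ELL, and Ser2P at 4 h gave 0.04 at AFF4, 0.352 at ELL and 0.247 at MLLT3, which also gave 0.247 at a −log10 q of at least 5. Leaving out single lists, Ser2P at 2 h ranged from −0.183 to 1.462 at AFF1, −2.416 to 0.251 at ELL, −0.276 to 0.398 at MLLT3 and −0.457 to 0.676 at ICE2. Ser2P at 4 h ranged from −1.796 to 0.871 at ELL, −0.514 to 0.114 at ELL3, −0.304 to 0.247 at MLLT3, −0.142 to 0.28 at EAF1 and −0.244 to 0.356 at ICE1. The cause was not tested.

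Among all genes, Ser5P gains at 2 h were 548 and became 843 at a −log10 q of at least 5, Ser5P gains at 4 h were 280 and became 457 with equal top peaks, Pol II gains at 2 h were 34 and became 18 and 0, and Ser2P gains at 4 h were 274 and became 557 and 739. Depth is unknown, so an absent peak may be an undetected one.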
